A study of Mus musculus with 4 samples.

Results

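Sox9 encodes the transcription factor that commits limb mesenchyme to cartilage, and Scx encodes scleraxis, a basic helix-loop-helix factor of tendon and ligament progenitors. Progenitors that hold both proteins are known to build the attachment sites where tendon or ligament joins the skeleton, so cells with both transcripts in the early limb bud are of interest beside cells with Sox9 alone. Along the limb, cells nearest the body carry Meis and Irx transcription factors, and cells at the tip carry Hox genes of group 13 and genes that answer signals from the apical ectodermal ridge.

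The cells described here are the 355 Sox9 and Scx double-positive cells of the E11.5 hindlimb library, out of 1636 cells that remained after filtering and 10272 barcodes in the 4 libraries of the series. A cell was kept with at least 200 genes, at most 10% of its unique molecular identifiers (UMIs, each a captured transcript) from mt- genes, and no UMI of the endothelial gene Cdh5 or the epithelial gene Epcam. Double-positive cells had at least 1 UMI of each gene and made up 21.7% of these 1636 cells (95% interval 19.7 to 23.8). Sox9-only cells numbered 844 (51.6%), Scx-only cells 93 (5.68%), and 344 cells (21.0%) had neither. The measured levels of Sox9 and Scx therefore chose the groups, and nothing in them is a finding.

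The material was hindlimb of C57BL/6 embryos with no transgene or treatment named in the labels. For each of the stages E11.5, E13.5, E15.5 and, last, E18.5, limbs of 1 litter were dissociated with 2 enzymes (collagenase and pronase), pooled and banked frozen, and 1 droplet library was made after thawing and removal of dead cells. With 1 library a stage there is no replicate and no test could be made: every statement compares cells within these libraries. Intervals are at 95% and cover counting error only, not the spread between embryos or between cells, and with so many genes some intervals miss 1 by counting error alone.

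Before filtering, the E11.5 library held 2683 barcodes and 27149328 UMIs. Median depth was 8666 UMIs in double-positive, 8475 in Sox9-only, 8581 in Scx-only and 7438.5 in double-negative cells. In all, 69 barcodes occurred in more than 1 library, among them those of 5 double-positive cells. Scrublet called 22 of 2640 cells as doublets (0.833%), which were kept, and the 5% highest scores held 5.92% of double-positive and 4.03% of Sox9-only cells.

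The mesenchymal label was set beside marker lists. Cells with a Cdh5 or Epcam UMI had already been left out, so low endothelial and epithelial sums follow in part from the filter. A UMI of at least 1 of 10 limb mesenchyme markers was found in 99.4% of double-positive and 98.7% of Sox9-only cells, with summed levels of 1879 and 2050 CPM (UMIs of a gene per 1e6 summed UMIs). Of these markers 4 were called higher in pairs matched on depth (described with the first comparison), Twist2, Tbx4, Meox2 and Hoxc10, and 2 lower, Msx1 and Prrx2 (ratio 0.59). The 8 endothelial markers summed to 44.1 CPM in double-positive and 60.5 CPM in Sox9-only cells, and the 8 epithelial markers to 63.6 and 49.1 CPM, with the defining epithelial cadherin gene Cdh1 at 0 in double-positive cells. The keratin gene Krt18 had 132 UMIs in double-positive and 84 in matched Sox9-only cells, 1.57-fold higher, and its part in the results was not tested. The 7 muscle progenitor markers summed to 19 UMIs in all double-positive cells, with Pax7 at 0, the 7 neural crest markers to 58 and the 7 erythroid markers to 25. Of the 65 macrophage UMIs in double-positive cells 41 sat in 1 cell. The 344 double-negative cells were more mixed, with a limb mesenchyme marker in 89.8% of them. They held 1102 macrophage UMIs (354 CPM), 223 muscle progenitor UMIs (100 of them in 1 cell) and 136 CPM of endothelial markers.

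Scx was a low-level transcript, and this bounds what the split can show. Of the double-positive cells 214 (60.3%) had exactly 1 Scx UMI, with a median depth of 7983.5 UMIs, and 52 (14.6%) had exactly 1 UMI of each gene. Only 108 cells (30.4%) had 2 or more of each, at a median depth of 10314.5. The highest count in a cell was 8 for Scx and 31 for Sox9. Just outside the threshold, 236 Sox9-only cells (28.0%) had exactly 1 Sox9 UMI. As a background, Scx was found in 5.30% of 434 Cdh5-positive cells (median depth 11023). Of these, 17.3% also had a UMI of the mesenchymal gene Prrx1. Among the 1636 kept cells (median depth 8293.5) Scx was found in 27.4%. With every cell thinned to 3000 UMIs, which left out 1 and 13 cells, the shares were 2.08% and 14.2%. Both genes together were found in 3.0% of the Cdh5-positive cells and in 0.693% of them after thinning. The double-positive share of kept cells was 7.95% after thinning. In 534 Epcam-positive cells, of which 31.1% had a Prrx1 UMI, Scx was found in 13.7%. Both genes together were found in 10.9% of them, and in 3.56% of 533 such cells after thinning. The part of free RNA and of doublets in these shares was not tested. Sox9-only cells can thus include cells whose Scx transcripts were missed.

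Both genes chose the groups, so the share of cells with a Scx UMI is given as a description. Scx was found in 29.6% of Sox9-positive cells (27.0 to 32.3) and 21.3% of Sox9-negative cells (17.5 to 25.4). The 437 Sox9-negative cells include the 344 double-negative cells, which held 1102 macrophage UMIs. The part of other cell types in these shares was not tested. By depth quartile, from shallow to deep, the pairs of shares were 23.9% and 13.1%, 34.1% and 23.8%, 32.8% and 29.6%, and 26.9% and 21.8%. The Sox9-positive share was the higher one in each quartile, with overlapping intervals in all 4. Across Sox9 counts it was 26.5% at 1 UMI, 29.1% at 2, 29.7% at 3 to 5 and 34.9% at 6 or more, while median depth went from 7596 to 9770 UMIs. Sox9 (chromosome 11, 112782224 to 112787760, plus strand, GRCm38) and Scx (chromosome 15, 76457452 to 76459458, plus strand) are protein-coding. Scx overlaps Bop1 on the other strand, and reads of the pair cannot be told apart unless counting used strand, a point not given in the sources used.

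The first comparison asked what else differs between double-positive and Sox9-only progenitors. Double-positive cells had more of the transcription factors of the proximal limb, above all Irx3, Irx5, Meis1 and Meis2, and of the homeobox gene Gsc, the matrix gene Smoc1 and the connective tissue factor Ebf2. They had less of the distal limb genes Hoxd13, Hoxd12, Msx1, Msx2, Lhx2 and Tfap2b. Pooled over all positions along the limb, cartilage collagens differed little. No listed cell cycle gene passed the size rule, which says little at the share called over all tested genes. Each double-positive cell was paired with the Sox9-only cell nearest in total UMIs (355 pairs, median 8662 and 8668 UMIs), and UMIs were summed over each side without Sox9 and Scx. A gene was called by size: at least 1.5-fold, the whole interval on that side of 1, at least 50 UMIs over both sides, no cell with over 20% of them, and the same direction in the deeper and shallower pairs. Of 9018 genes with at least 50 UMIs 236 were higher (2.62%) and 141 lower (1.56%), 4.18% in all. The median log2 ratio was 0.01, and 72.6% of the genes lay within 1.2-fold.

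Proximal limb genes were higher in double-positive cells. Of 11 listed genes 9 had enough UMIs, Meis3 and Emx2 did not, and 7 of the 9 were called higher, none lower, with a median log2 ratio of 0.98 beside 0.01 for all tested genes. Irx3, an Iroquois homeobox factor needed for proximal and anterior hindlimb elements, was found at 226 UMIs in double-positive and 44 in matched Sox9-only cells, 5.13-fold higher (3.70 to 7.26). It was detected in 18.3% of the former and 7.32% of the latter. The ratio was 9.21 in the deeper pairs and 2.31 in the shallower ones, so its size moved with depth while its direction did not.

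Irx5, the neighbouring Iroquois gene, had 174 against 35 UMIs, 4.97-fold higher (3.44 to 7.36). Meis1, a TALE homeobox factor of the upper limb, had 233 against 81 UMIs, 2.87-fold higher (2.22 to 3.75). Its relative Meis2 had 411 against 177, 2.32-fold higher (1.94 to 2.78). Shox2, a homeobox gene required for the upper limb skeleton, was 1.97-fold higher (1.78 to 2.17) and was found in 65.9% against 51.5% of cells. The T-box gene Tbx18 was 1.78-fold higher, whereas Pbx3 (1.34) and Pbx2 (1.04), partners of Meis and Hox proteins, did not reach the size rule. Irx3 lies on chromosome 8 (91798525 to 91802067, minus strand), Irx5 on chromosome 8 (92357625 to 92376286, plus strand) and Meis1 on chromosome 11 (18879817 to 19018985, minus strand).

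Distal limb genes were lower. Of 16 listed genes 14 had enough UMIs, and 10 of these were called lower and none higher (median log2 ratio -1.06). Hoxd13 (chromosome 2, 74668310 to 74671599, plus strand), the Hox gene of the digits, had 180 UMIs in double-positive and 541 in Sox9-only cells, a ratio of 0.33 (0.28 to 0.39), and was found in 15.5% and 31.5% of cells. Its ratio was 0.34 in the deeper and 0.29 in the shallower pairs. Hoxd12 had 107 against 279 UMIs (ratio 0.38) and Hoxa13 51 against 117 (0.44).

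The homeobox genes Msx1 and Msx2, targets of BMP signals in the distal mesenchyme, followed the Hox genes. Msx1 had 367 against 863 UMIs (ratio 0.42, 0.37 to 0.48) and Msx2 38 against 150 (0.25, 0.17 to 0.36). Lhx2, a LIM homeobox factor that answers the apical ridge, had 216 against 575 UMIs (0.38, 0.32 to 0.44), and its relative Lhx9 353 against 584 (0.60). The largest contrast was in Tfap2b (chromosome 1, 19208914 to 19238576, plus strand), an AP-2 factor of the distal limb, with 21 against 132 UMIs (0.16, 0.10 to 0.25), in 2.82% against 14.4% of cells. Dlx5, Sall1, Sall4 and Cyp26b1, the retinoic acid-degrading enzyme, were not called (0.89, 0.86, 0.69 and 1.08). Of the 9 Hox genes of the middle limb only Hoxc10, a hindlimb gene, was called, 1.63-fold higher. Hoxa11, which marks the lower leg, was 1.2-fold higher (1.01 to 1.42), under the size rule.

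**Figure D1:**
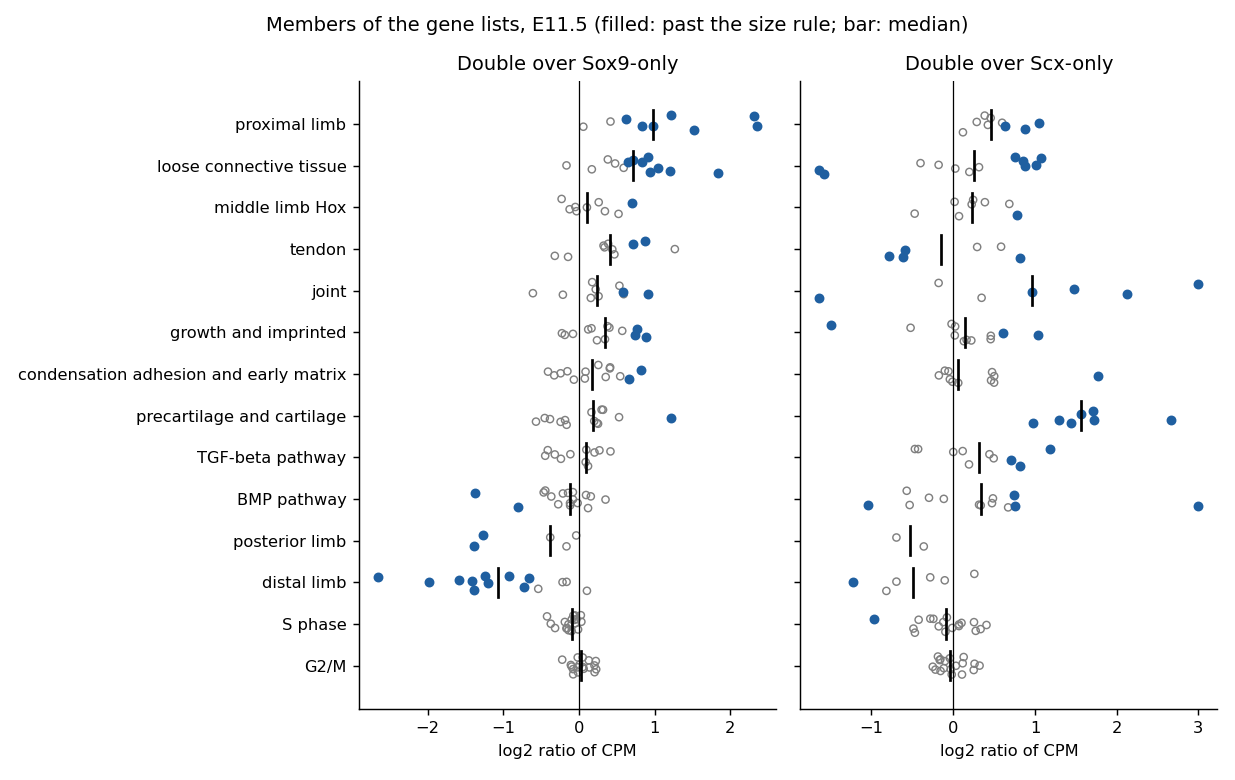
Log2 ratio of summed CPM for each tested member of 14 gene lists, double-positive over depth-matched Sox9-only cells (left) and over Scx-only cells (right), with the list median as a bar and called members filled. Proximal limb genes lie to the right and distal limb genes to the left of 0 on the left side, and the 7 tested cartilage genes lie to the right of 0 on the right side.

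The genes farthest from equality included several outside the lists. Gsc (chromosome 12, 104471209 to 104473330, minus strand), the homeobox gene goosecoid, had 354 UMIs in 133 double-positive cells and 92 in 43 Sox9-only cells, 3.84-fold higher (3.05 to 4.89). Its ratio was 6.23 in the deeper and 2.74 in the shallower pairs. Smoc1 (chromosome 12, 81026808 to 81186414, plus strand), a secreted matrix protein that antagonizes BMP signals, had 145 UMIs in 87 cells against 35 in 27 cells, 4.14-fold higher (2.85 to 6.17). Nbl1, another secreted BMP antagonist, was 3.14-fold higher (242 against 77 UMIs).

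The growth factor Fgf9 was 4.37-fold higher with a wide interval (2.51 to 8.06), from 70 against 16 UMIs. The somite-associated homeobox gene Meox1 was 3.85-fold higher (2.64 to 5.76), and its relative Meox2, a factor of limb muscle patterning, 2.01-fold higher (1.58 to 2.57). The nuclear receptor Nr2f1 was 3.71-fold and the homeobox gene Barx2 3.18-fold higher. Pkdcc, a secreted kinase that long bones need for growth, was 3.55-fold higher (181 against 51 UMIs), and Zbtb16, the zinc finger factor PLZF of proximal limb patterning, 3.22-fold higher (58 against 18).

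At the low end stood, beside Tfap2b and Msx2, the homeobox gene Evx1 (16 against 64 UMIs, ratio 0.25) and 5730457N03Rik (18 against 59, 0.30), which is annotated as overlapping Evx1 on the other strand, so that the reads of the pair cannot be told apart without use of strand. Lmo2, a LIM-only transcriptional adaptor, had 70 against 201 UMIs (0.35, 0.26 to 0.46). The neuronal microtubule regulator Stmn2 had 25 against 87 (0.29), the small heat shock gene Hspb8 19 against 60 (0.32) and Cbln1 29 against 88 (0.33). Sergef, Ccdc109b and Gal3st1 completed the 12 lowest, each with 22 or fewer UMIs in double-positive cells.

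**Figure D2:**
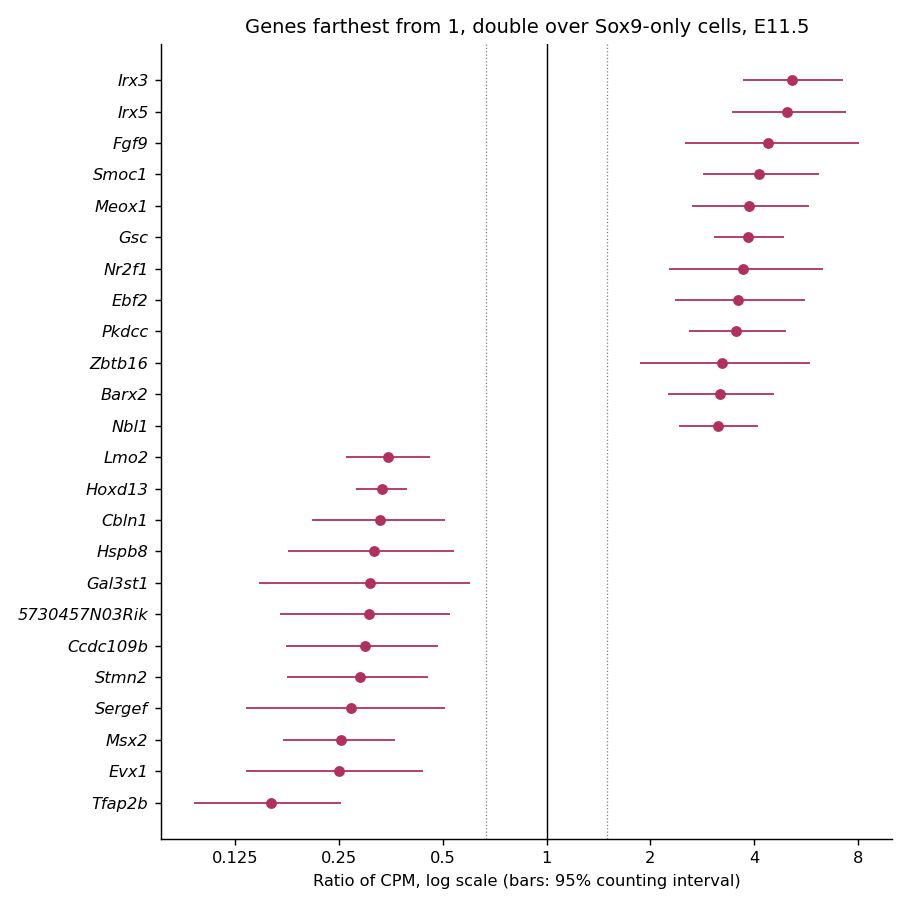
Ratio of CPM (log scale) for the 12 called genes farthest above and the 12 farthest below 1, double-positive over Sox9-only cells in 355 pairs, with 95% counting intervals as bars and the 1.5-fold limits dotted. Irx3 is at 5.13 and Tfap2b at 0.16, and genes with few UMIs such as Fgf9 have the widest bars.

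Connective tissue factors were higher with Scx. Of 14 genes of loose connective tissue 13 had enough UMIs, and 8 were called higher and none lower (median log2 ratio 0.72). Ebf2, an early B-cell factor family member, had 104 against 29 UMIs, 3.58-fold higher (2.35 to 5.61), and its relative Ebf3 was 1.57-fold higher. The zinc finger repressor Hic1, a marker of connective tissue progenitors, was 2.31-fold higher (60 against 26), but 1 cell held 14.0% of those UMIs. The forkhead genes Foxp1 and Foxp2 were 1.92-fold and 2.06-fold higher. Osr2, an odd-skipped factor of connective tissue and joints, was 1.88-fold higher (668 against 355), and its relative Osr1 was at 1.51 without passing the rule.

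Of the genes of the tendon programme, 10 of 21 had enough UMIs and 2 were called higher, both fibrillar collagens that connective tissues share. Col3a1 had 1078 against 585 UMIs, 1.84-fold higher (1.66 to 2.04), and Col1a1 267 against 162, 1.65-fold higher (1.35 to 2.01), or 1.35-fold with pairs matched also on Hoxd13 UMIs, under the size rule. Tnmd, the tendon membrane protein tenomodulin, had 2 UMIs in double-positive and 1 in matched Sox9-only cells, too few for a ratio. The tendon factor Mkx stood at 1.36 and was not called.

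Pooled over all positions along the limb, cartilage genes set the double-positive cells little apart from Sox9-only cells. By position some differed more, as given further on. Only 1 of 14 tested genes was called, Runx2, a factor of hypertrophic cartilage and bone, which was 2.32-fold higher (58 against 25 UMIs), and the list's median log2 ratio was 0.19. Col2a1 (chromosome 15, 97975602 to 98004695, minus strand), which encodes the chief collagen of cartilage, had 911 against 739 UMIs, a ratio of 1.23 (1.12 to 1.36). It was 1.86 in the deeper and 0.93 in the shallower pairs, so the direction differed between them. Sox5 and Sox6, the partners of Sox9 on cartilage genes, stood at 0.89 (0.76 to 1.05) and 0.88 (0.64 to 1.22). Sox9 itself had 1302 against 1224 UMIs in the paired cells. Among joint genes Osr2 and Enpp2, the enzyme autotaxin (1.5-fold), were called higher of 10 tested. Enpp2 lost its call under most alternatives. Gdf5, the growth factor of the joint interzone, stood at 1.12 (0.81 to 1.54) with 86 against 77 UMIs.

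Among growth and imprinted genes 3 of 13 were called higher. H19, an imprinted non-coding RNA, had 7547 against 4406 UMIs, 1.71-fold higher (1.65 to 1.78), and its neighbour Igf2, a fetal growth factor, 2577 against 1535, 1.68-fold higher (1.57 to 1.79). Dlk1, a membrane protein that restrains differentiation, was 1.86-fold higher. The share of cells with an H19 UMI was 98.6% and 96.6%, so the groups differed in UMIs per cell. The calls of H19 and Igf2 were lost when pairs were matched also on Hoxd13 UMIs.

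Calls in the lists that follow are to be read beside the 4.18% called over all tested genes. At that share a list of 11 to 18 genes without a call says little. In the BMP list the ligand Bmp2 (32 against 83 UMIs, ratio 0.39) and the decoy receptor Bambi (365 against 639, 0.57) were lower, and the other 15 tested genes were not called. In the WNT list Wnt11 (2.25-fold) and the WNT amplifier Rspo3 (1.79-fold) were higher, and the ligand Wnt5a (0.61) and the transcription factor Tcf7 (0.49) were lower, of 17 tested. With pairs matched also on position along the limb, described further on, Wnt5a stood at 0.86 (0.71 to 1.04) and Tcf7 at 0.78 (0.50 to 1.22), and neither was called. The limb bud growth factor Fgf10 was the only called gene of 11 tested in the FGF list, with a ratio of 0.44 (24 against 55 UMIs). In the position-matched pairs Fgf10 had 23 against 28 UMIs, a ratio of 0.81 (0.44 to 1.46), and was not called. No gene of the TGF-beta list (11 tested) was called. Of the anterior limb genes Pax9 was among those lower (0.53), and of the posterior limb genes Tbx2 (0.41) and Hoxd12 were. Among helix-loop-helix genes Tcf15, or paraxis, the closest relative of scleraxis in the list, was 2.58-fold higher (1.80 to 3.76), and Twist2 1.77-fold higher. In the list of condensation adhesion and early matrix Efna5, an ephrin ligand, was 1.76-fold and Thbs1 1.59-fold higher of 14 tested, but Thbs1 stood at 0.68 where groups were cut at 2 UMIs. Stra6, the retinol transporter, was 1.55-fold higher, the only call of 10 tested retinoic acid genes. None of 11 immediate early and heat shock genes, none of 18 S phase genes (median log2 ratio -0.10) and none of 18 G2/M genes (0.03) was called. Ratios lay below 1 for 16 and above 1 for 2 of the S phase genes, and for 8 and 10 of the G2/M genes. Over all tested genes they did for 4444 and 4574.

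The position of the cells along the limb moved with the split. Of the UMIs of the proximal and distal lists together, distal genes held 29.8% in double-positive, 63.0% in Sox9-only, 41.9% in Scx-only and 58.7% in double-negative cells. When cells were ranked by this share and cut into tertiles, Scx was found in 44.0% of the Sox9-positive cells of the most proximal tertile (39.0 to 49.2), 31.7% of the middle one and 13.1% of the most distal one (9.87 to 16.9). Median depth ran the other way, with 7149, 8608 and 11177 UMIs in the 3 tertiles. Of the double-positive cells 46.8% fell in the most proximal tertile and 14.1% in the most distal one, against 25% and 39.3% of Sox9-only cells.

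Matching pairs on the tertile as well as on depth, a step chosen after the values were seen, left 339 pairs. Of 8872 genes with at least 50 UMIs 153 were higher and 95 lower in these pairs, and 128 of the 377 calls were kept. The proximal and distal lists define the tertiles, so their shrinking ratios follow from the matching. Irx3 was still 2.40-fold (1.80 to 3.24) and Irx5 2.80-fold higher (1.98 to 4.03). Meis1 stood at 1.85, Meis2 at 1.76, Msx1 at 0.59, Msx2 at 0.35, Lhx2 at 0.57 and Tfap2b at 0.44, all called. Thus 4 of 9 tested proximal genes were still higher and 4 of 14 distal genes lower. Tertiles are coarse, so paired cells could still differ in position within a tertile. Shox2, Tbx18, Hoxd13, Hoxd12 and Hoxa13 were no longer called.

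Outside those lists, in these tertile-matched pairs, Gsc was 3.05-fold (2.44 to 3.82) and Smoc1 2.83-fold higher (2.02 to 4.03). Fgf9 was 3.37-fold, Ebf2 3.02-fold and Meox1 2.31-fold higher. Of 62 named genes called over Sox9-only cells 35 kept the call and 27 did not. Outside the lists that define the tertiles, calls were lost by the connective tissue and joint genes Col1a1, Col3a1, Osr2, Enpp2, Foxc1, Twist2 and Thbs1, the growth and imprinted genes H19, Igf2 and Dlk1, and the signalling genes Bambi, Wnt5a, Tcf7, Fgf10 and Stra6. Tbx2, Hoxc10, Evx1, 5730457N03Rik, Cbln1 and Ccdc109b lost theirs too. The loose connective tissue list kept 6 of 13 genes higher (median log2 ratio 0.47). In the cartilage list Fgfr3, Lect1 and Papss2 were called lower in double-positive cells and Runx2 higher (median -0.20). The collagen gene Col9a3 stood at 0.67 (0.59 to 0.76) and was not called.

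Within tertiles, without depth matching, Smoc1 differed more the farther out the cells lay (166 double-positive and 211 Sox9-only cells in the most proximal tertile, 138 and 297 in the middle one, 50 and 332 in the most distal one). Its level in double-positive and Sox9-only cells was 39.4 (30.0 to 50.8) and 26.7 CPM (19.1 to 36.3) in the most proximal tertile, 38.3 and 12.6 CPM in the middle one, and 60.8 (42.6 to 84.2) and 5.72 CPM (3.58 to 8.65) in the most distal one. Gsc was also higher in double-positive cells in each tertile, with 100.2 and 52.0, 140.2 and 30.6, and 35.5 and 7.80 CPM. Hoxd13 is in the distal list that ranks the cells, so its likeness within tertiles follows in part from the ranking. It was at 2.67 and 2.67 CPM in the most proximal tertile, from 4 UMIs in each group, and had overlapping intervals in the other 2. Col2a1 took both directions: double-positive cells had less of it in the most proximal tertile (331 against 493 CPM) and more in the most distal one (94.6 against 48.3 CPM). Gdf5 was at 41.4 and 67.4 CPM in the most proximal tertile, with intervals of 31.7 to 53.1 and 54.9 to 81.9.

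The number of Scx UMIs gave a graded view among the 1199 Sox9-positive cells. Those with 0, 1, 2 and 3 or more Scx UMIs numbered 844, 214, 66 and 75, with median depths of 8475, 7983.5, 9830.5 and 10107. The median Sox9 count was 2 in the first class and 3 in each of the others. Irx3 stood at 13.2, 27.5, 82.7 and 142 CPM in that order, and Irx5 at 8.14, 21.1, 60.6 and 112 CPM. Both increased at each step, with intervals that did not overlap.

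Gsc stood at 23.8, 86.6, 120 and 132 CPM, a large step at the first Scx UMI and then overlapping intervals from each class to the next. Smoc1 went from 11.9 through 26.4 and 48.8 to 74.8 CPM, with overlapping intervals between neighbouring classes from 1 UMI on. Meis1 was at 22.6, 59.7, 47.3 and 106 CPM, with no order between 1 and 2 UMIs. The levels of distal genes went down. Hoxd13 stood at 148, 65.5, 42.8 and 32.6 CPM, Lhx2 at 177, 75.5, 54.7 and 43.4 CPM, and Msx2 at 47.1, 12.7, 14.8 and 4.83 CPM. Col2a1 followed no such order, with 219, 313, 211 and 211 CPM, the cells with 1 Scx UMI being the highest. Some other cartilage genes were lower with 3 or more Scx UMIs than with 0, without overlap of intervals. These were Sox5 (48.3 against 88.7 CPM), Col9a3 (70.0 against 149 CPM) and Wwp2 (77.2 against 114 CPM). Each of them was, like Col2a1, highest with 1 Scx UMI. Col9a1 (385 against 310 CPM) and Runx2 (21.7 against 6.01 CPM) went the other way, and intervals overlapped for Col9a2 and Sox6.

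**Figure D3:**
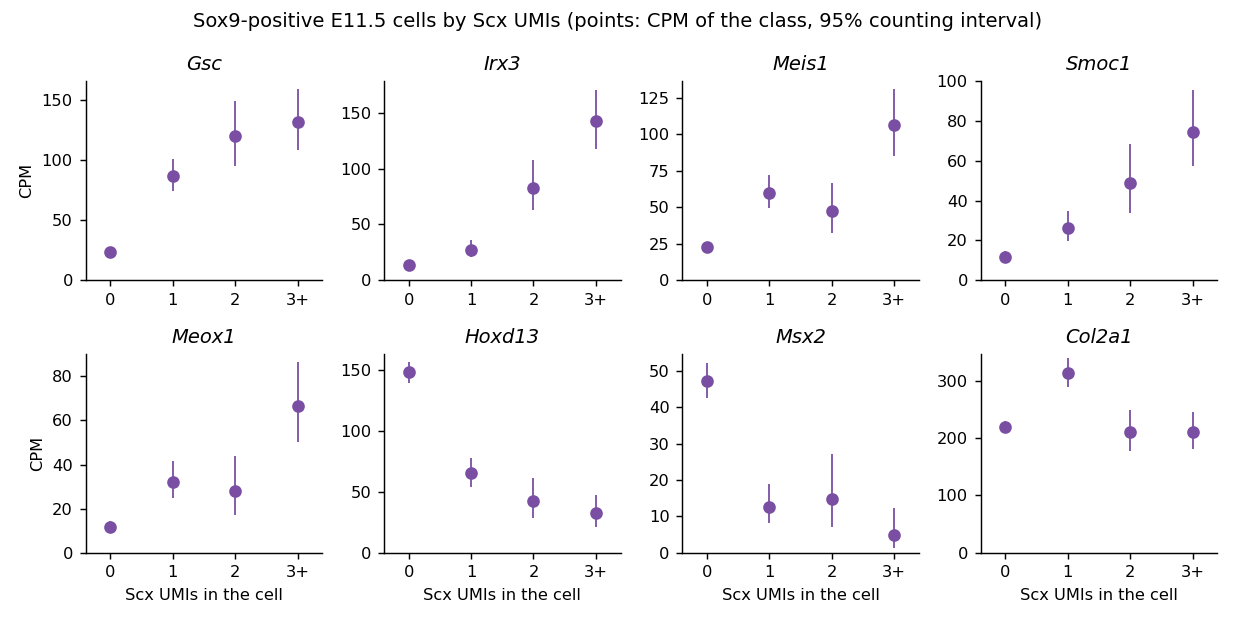
Summed CPM of 8 genes in Sox9-positive E11.5 cells grouped by their Scx UMIs (844, 214, 66 and 75 cells), with 95% counting intervals as bars and a linear axis from 0 in each plot. Irx3 goes from 13.2 to 142 CPM and Hoxd13 from 148 to 32.6 CPM, while Col2a1 lies between 211 and 313 CPM without an order.

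The second comparison set the double-positive cells against the 93 Scx-only cells, which lack a Sox9 UMI. Double-positive cells had more of the cartilage collagens Col2a1, Col9a1, Col9a2 and Col9a3, of the joint genes Gdf5, Enpp2 and Sfrp2 and of the matrix genes Vcan and Cthrc1. They had less of Meox2, Osr1, Hic1, Wif1 and Dlk1 and of the fibrillar collagens Col1a1, Col1a2 and Col3a1. The 93 pairs gave 5273 genes with at least 50 UMIs, of which 177 were higher (3.36%) and 97 lower (1.84%), 5.2% in all, with a median log2 ratio of 0.00. Fewer cells make these ratios less precise, and they share the double-positive cells with the first comparison, so the values of both are given side by side without an overlap.

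All 23 cartilage genes in the table summed to 1371 UMIs in double-positive and 456 in Scx-only cells. The 7 genes with at least 50 UMIs, a sum that the higher side helps to reach, were each called higher (median log2 ratio 1.56). Col9a3 had 120 UMIs in 43 cells against 19 in 13 cells, 6.32-fold higher (3.88 to 10.9), and Col9a2 158 against 48, 3.29-fold higher (2.37 to 4.65). These encode chains of collagen IX, which coats the collagen II fibrils of cartilage. Col2a1 had 253 against 86 UMIs, 2.94-fold higher (2.3 to 3.80), and Col9a1 425 against 173, 2.46-fold higher.

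Wwp2, a ubiquitin ligase gene that Sox9 is known to activate and that hosts the cartilage microRNA miR-140, was 3.27-fold higher (111 against 34 UMIs). Sox5 was 2.71-fold higher (1.78 to 4.24). The ratios of Wwp2 and Sox5 in double-positive over Sox9-only cells were 1.18 and 0.89. In levels over all cells, Col2a1 stood at 268 CPM (251 to 286) in double-positive, 219 (209 to 230) in Sox9-only, 98.2 (78.5 to 121) in Scx-only and 80.9 CPM (71.3 to 91.6) in double-negative cells. The latter pair overlapped in their intervals.

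**Figure D4:**
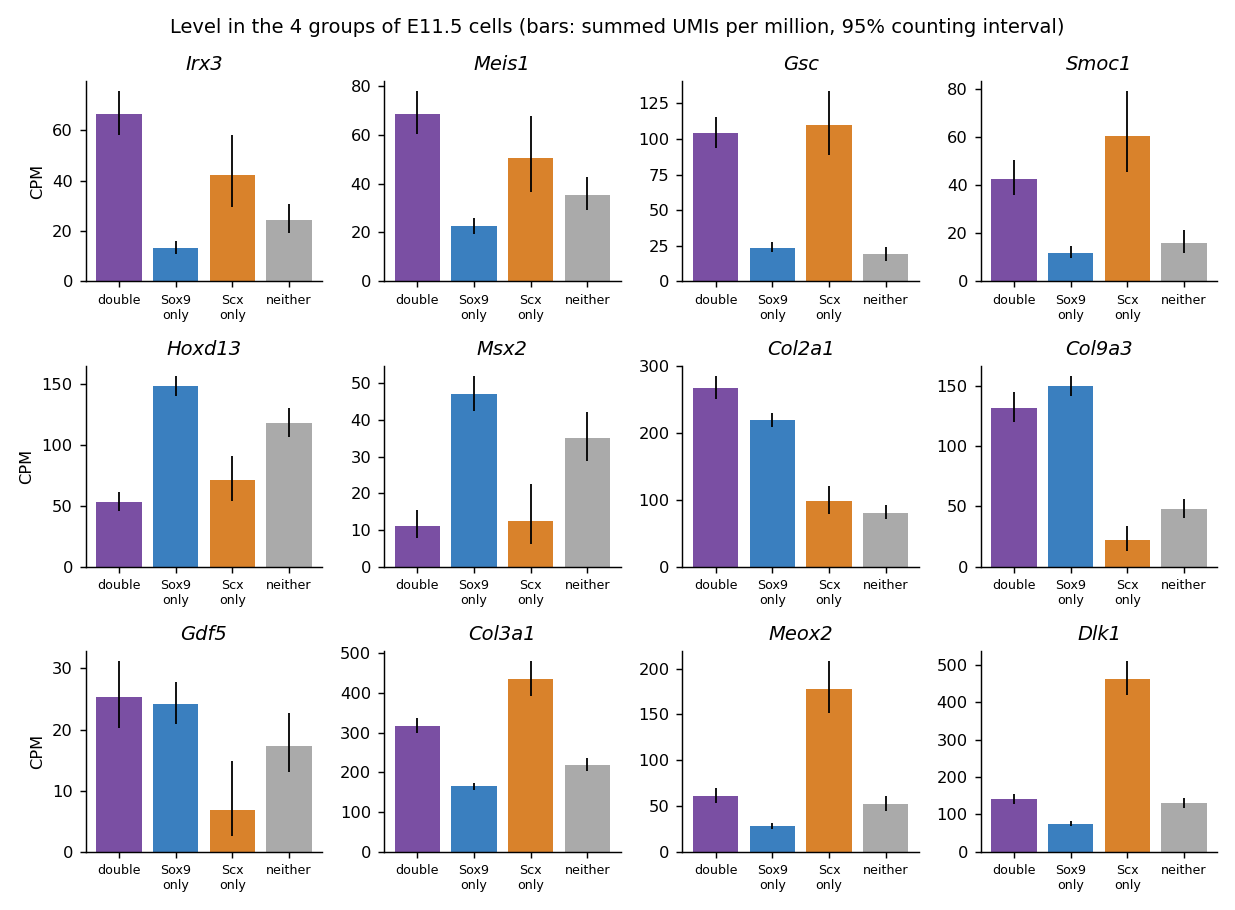
Summed CPM of 12 genes in the 355 double-positive, 844 Sox9-only, 93 Scx-only and 344 double-negative cells of E11.5, as bars from 0 with 95% counting intervals. Col2a1 is high in the groups with Sox9 (268 and 219 CPM), Gsc in the groups with Scx (104 and 109.6 CPM), and Dlk1 is highest in Scx-only cells (464 CPM).

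Joint genes gave 4 calls higher and 1 lower of 7 tested. The minimum of 50 UMIs is a sum over both sides. Gdf5 and Enpp2 reached it mainly through the double-positive side, so the count of higher calls leans on that side. Gdf5 (chromosome 2, 155941023 to 155945367, minus strand) had 48 UMIs in 24 double-positive cells and 6 in 4 Scx-only cells, 8.00-fold higher (3.42 to 22.9). The ratio was 3.69 over all cells of both groups without matching, and the gene fell short of 50 UMIs under several alternatives. Enpp2 was 4.37-fold (48 against 11), the WNT antagonist Sfrp2 2.78-fold (450 against 162) and Jun 1.96-fold higher, and Osr1 lower (17 against 53, 0.32). Jun and its partner Fos (1.95-fold) are also immediate early genes, and they were the called ones of 9 tested genes of that list. Vcan, the proteoglycan versican of early condensations, was 3.42-fold higher (229 against 67), and Cthrc1, a secreted collagen-associated protein, 4.04-fold (117 against 29). Tox (3.64-fold) and Foxc1 (3.54-fold), the latter a forkhead factor of skeletal progenitors, rested on 11 and 13 UMIs in Scx-only cells. Tox lost its call under most alternatives and Foxc1 under several.

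On the other side, Meox2 had 38 UMIs in double-positive and 156 in Scx-only cells (ratio 0.24, 0.17 to 0.35). Dlk1 had 144 against 406 UMIs (0.35, 0.29 to 0.43), the WNT inhibitor Wif1 31 against 91 (0.34) and Hic1 15 against 45 (0.33). Meox2, Dlk1 and Hic1 were thus in between in double-positive cells, above Sox9-only and below Scx-only cells. The tendon list had 3 of 6 tested genes lower, Col1a1 (0.58), Col1a2 (0.66) and Col3a1 (0.65), and Tgfbi, an adhesion protein that TGF-beta induces, 1.76-fold higher.

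Other lists gave a few calls over Scx-only cells. Of the TGF-beta genes Tgfb2, a ligand that induces tendon progenitors, was 2.27-fold higher (102 against 45 UMIs), as were Tgif1 (1.63-fold) and Tgfbi, of 10 tested. The BMP targets Id1 and Id3 were 1.67-fold and 1.69-fold higher, while the ligand Bmp4 was lower (45 against 93 UMIs, ratio 0.48). Bmp4 was not called in pairs matched also on tertile (77 against 91 UMIs, 0.85, 0.62 to 1.17), nor over all cells without matching. Of 9 proximal limb genes Pbx3, Tbx18 and Pbx2 were higher (2.07-fold, 1.84-fold and 1.55-fold), and of 6 distal limb genes Lhx2 was lower (0.43), but Lhx2 stood at 1.00 where groups were cut at 2 UMIs. The loose connective tissue list was split, with Tbx15 (2.02-fold), Ebf3, Tbx18, Foxp2 and Ebf1 higher and Hic1 and Osr1 lower of 12 tested. Foxp2 stood at 0.90 with pairs matched also on Scx UMIs. Scx-only cells held 30 UMIs of muscle progenitor markers, 17 of them in 1 cell, against 7 in the matched double-positive cells, and the part of these in the result was not tested.

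Gsc, Smoc1, Irx3 and Irx5 were not called over Scx-only cells, with ratios of 1.12 (0.84 to 1.48), 0.83 (0.54 to 1.26), 1.51 (0.98 to 2.36) and 1.31 (0.83 to 2.08). In levels over all cells, Gsc stood at 104 CPM (93.6 to 116) in double-positive and 109.6 CPM (88.8 to 134) in Scx-only cells, and Smoc1 at 42.7 (36.0 to 50.2) and 60.5 CPM (45.3 to 79.2). Both had overlapping intervals in these groups and lower levels in Sox9-only cells, 23.8 CPM for Gsc and 11.9 CPM for Smoc1. Irx3 was at 66.5 CPM (58.1 to 75.8) in double-positive, 42.2 CPM (29.7 to 58.2) in Scx-only, 24.4 CPM in double-negative and 13.2 CPM in Sox9-only cells. With pairs matched also on tertile, 6 of the 7 tested cartilage genes were still called higher, without Col11a1.

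The same split was then made in the E13.5 and E15.5 libraries, which the E11.5 rule did not use. Double-positive cells numbered 173 of 2331 cells at E13.5 (7.42%) and 75 of 2248 at E15.5 (3.34%). At E18.5 they were 25 of 1666 (1.5%), too few for a comparison. Differences between stages were not tested, and the values of each stage are given side by side. At E13.5 Col1a1 had 984 against 243 UMIs, 4.05-fold higher (3.52 to 4.68), and Col3a1 880 against 294, 2.99-fold higher (2.62 to 3.43). At this stage 379 of 6697 genes were higher (5.66%) and 155 lower (2.31%), 7.97% in all, and at E15.5, in 74 pairs because 1 cell found no match, 363 of 3970 were higher (9.14%) and 142 lower (3.58%), 12.7% in all.

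At E13.5 Col2a1 stood at 0.66 (0.64 to 0.68), Col9a1 at 0.60 (0.57 to 0.63) and Sox5 at 0.62 (0.52 to 0.75), each called lower in double-positive cells. Sox9 itself had 653 against 946 UMIs in the 173 pairs, so these cells also had less Sox9, and its part in these ratios was not tested. At E15.5 Col2a1 stood at 0.76 (0.73 to 0.78) and Sox9 at 351 against 339 UMIs. Foxp1 was 2.95-fold higher at E13.5 and 6.61-fold at E15.5, beside 1.92-fold at E11.5. Sfrp2 was 2.73-fold and 13-fold higher at the later stages, beside 1.17 at E11.5.

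Tnmd had 110 UMIs in 14 double-positive cells and 3 in 3 Sox9-only cells at E13.5, but 1 cell held 21.2% of them and it was not called. That library also held 1 cell with 49 of the 340 Scx UMIs of its double-positive cells. Of the 236 genes called higher at E11.5, 124 had enough UMIs at E13.5, and 34 of these were higher and 2 lower there. Of the 141 called lower 46 had enough UMIs, and 4 were higher and 2 lower. At E15.5 61 of the 236 had enough UMIs, with 14 higher and 1 lower, and 21 of the 141, with 3 higher and 0 lower. Over all tested genes 5.66% were higher and 2.31% lower at E13.5, and 9.14% and 3.58% at E15.5. Ebf2 (7.25-fold), Nbl1 (3.63-fold), Pkdcc (1.5-fold), Meox2 (14.5-fold, 58 against 4 UMIs) and Hic1 (4.22-fold) were among those higher at both E11.5 and E13.5. Of the 12 genes farthest above 1 at E11.5, 6 had enough UMIs at E13.5, and 3 were higher and 1, Barx2, lower. Meox1 and Smoc1 were tested there and not called.

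**Figure D5:**
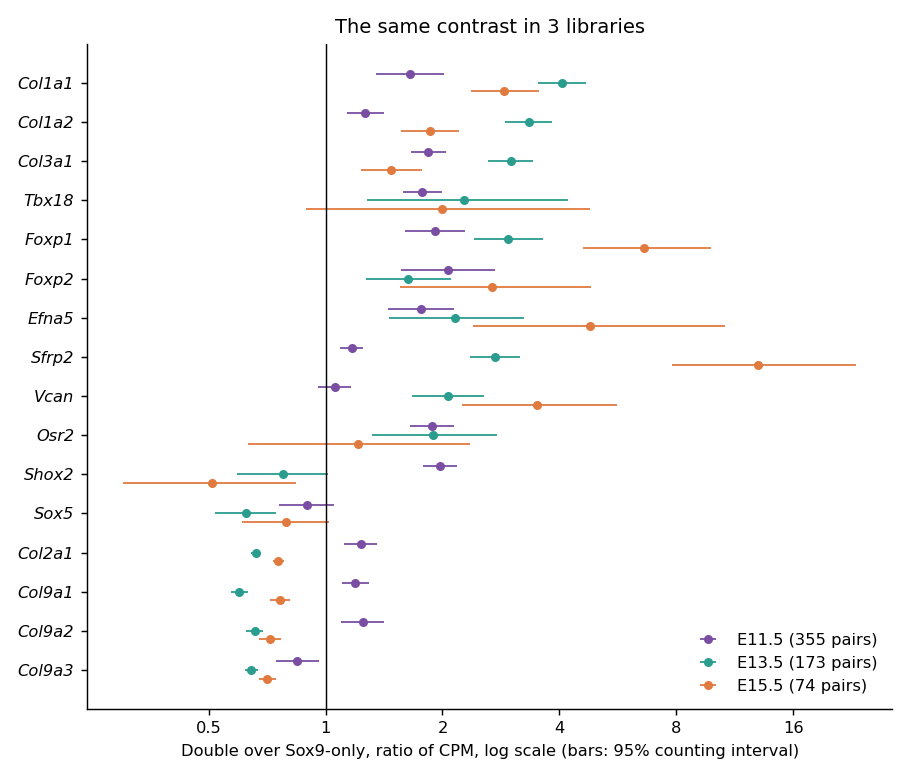
Ratio of CPM (log scale), double-positive over Sox9-only cells, for 16 genes at E11.5 (355 pairs), E13.5 (173 pairs) and E15.5 (74 pairs), with 95% counting intervals as bars. Col1a1 lies right of 1 at all 3 stages (1.65, 4.05 and 2.89), and Col2a1 right of 1 at E11.5 and left of it at E13.5 and E15.5 (1.23, 0.66 and 0.76).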

How the data were processed

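Raw UMI counts were deposited by the authors, made with Cell Ranger on mm10 per the submitters' processing notes, which also name Seurat 2.3.4. The Cell Ranger version, the barcode calling and any doublet removal are not given in the sources used. The deposited gene and barcode lists, which hold names and no measured values, were read beside the counts, which were whole numbers with unequal totals per cell. The table had 33456 gene entries, and 32655 IDs were found in GENCODE vM21 (GRCm38), the source of positions and overlaps.

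Cells of each library were filtered and split by the rule in the report. UMIs were summed over 1:1 pairs whose totals without Sox9 and Scx differed by at most 10%, taken from the deepest cell down, and divided by the summed total to give CPM. Ratios carry conditional binomial, levels Poisson and shares Clopper-Pearson exact intervals at 95%. Doublets were scored with Scrublet in scanpy 1.11.5 on all 2640 filtered cells and kept. Python 3.11.15, numpy 2.4.6, scipy 1.17.1 and pandas 2.3.3 were used, and the scripts were tested on simulated data. No statistical test was run, because each stage is 1 library.

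Members and lists were chosen with earlier results of these data known. Named genes were, over Sox9-only cells, the 12 called genes with the largest ratio in each direction, over Scx-only cells the 8, in each of 21 lists at most 5 called members and the member with the most UMIs, and 12 genes always named. Members named beyond these (Lhx9, Dlx5, Sall1, Sall4, Cyp26b1, Mkx, Fgfr3, Lect1, Papss2, Col11a1, Ebf1, Prrx2, Tbx4, Krt18) were chosen after their values were seen. Some listed genes are not reported here. Tried as alternatives were no matching, thinning to 3000 UMIs, a cut at 2 UMIs, matching also on the shared gene, Top2a, Hoxd13 or the tertile of distal share, stricter cells, and other fold and UMI minimums.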

Additional observations from a re-analysis of the deposited data

Results flagged for a closer look

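Genes called in one direction at E11.5 and in the other at a later stage, double-positive over Sox9-only cells, are given here as ratios of CPM. The difference between stages was not tested, since each stage is 1 library. At E13.5 Barx2 was at 0.34 (0.17 to 0.66, 13 against 38 UMIs) beside 3.18 at E11.5, and 1 cell held 19.6% of its E13.5 UMIs. Hoxd12 was at 1.74 (1.06 to 2.91, 47 against 27 UMIs) beside 0.38, and Pax9 at 3.0 (1.57 to 6.13, 39 against 13 UMIs) beside 0.53. At E15.5 Bambi was at 1.54 (1.10 to 2.16) beside 0.57, and Msx1 at 1.93 (1.2 to 3.16) beside 0.42. Shox2 was at 0.51 (0.30 to 0.84, 25 against 49 UMIs) beside 1.97, and Wnt5a at 5.0 (2.51 to 11.1, 50 against 10 UMIs) beside 0.61. These later ratios rest on 51 to 155 UMIs a gene in the pairs of its stage.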

How the results depend on the processing

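No paired analysis was possible because each stage is 1 library and no result comes from a test; for the same reason no replicate could be left out. Over Sox9-only cells the calls numbered 57 higher and 43 lower at a fold of 2, 75 and 37 with at least 200 UMIs, and 153 higher with tertile matching, an alternative added after seeing the data. The other alternatives left these counts within 1.5 times of 236 and 141, though the genes called could differ. With groups cut at 2 UMIs (108 pairs) 117 of the 377 calls were kept. Of 62 named genes 23 lost theirs, Tfap2b, Fgf9, Nr2f1 and Runx2 among them. Over Scx-only cells this cut kept 41 of the 274 calls. There 37 of 50 named genes lost theirs, Col9a3, Sox5, Wwp2, Sfrp2 and Dlk1 among them. The numbers of calls over Scx-only cells were 274 higher without matching, 75 and 43 after thinning to 3000 UMIs, 79 and 62 (33 pairs) with groups cut at 2 UMIs, 50 and 18 at a fold of 2, 275 and 148 with at least 20 UMIs, and 30 and 9 with at least 200 UMIs. Thinning changed the shares of cells to 7.95% double-positive, 41.0% Sox9-only and 44.7% with neither gene. Of the ratios of named genes over Sox9-only cells 1527 stayed within their interval, 212 moved and 1 turned, Thbs1 to 0.68 with the cut at 2 UMIs. Over Scx-only cells 1615 stayed, 113 moved and 7 turned: Spry1 (1.09) and Wnt5a (1.00) after thinning, Hoxd9 (0.78), Lhx2 (1.00), Plagl1 (0.92) and Wnt5a (1.42) with the cut at 2 UMIs, and Foxp2 (0.90) with pairs matched on Scx UMIs. The cause was not tested. These totals include the alternatives in fold and UMI minimum, which leave every ratio unchanged (109 of 109 within the interval each). Over Sox9-only cells 45 of 108 ratios stayed within the interval with tertile matching and 58 of 109 with the cut at 2 UMIs. Over Scx-only cells these were 97 of 109 and 53 of 103. After thinning 92 of the 377 calls over Sox9-only cells and 45 of the 274 over Scx-only cells were kept, with 5938 and 2083 genes tested. Most double-positive cells rest on 1 Scx UMI, so depth limits the split itself, and genes under 50 UMIs could not be compared.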
